A study of Mus musculus with 11 samples.

Results

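The endothelin genes of the mandibular arch were described here: the ligand genes Edn1 and Edn3, the receptor genes Ednra and Ednrb, the processing enzyme gene Ece1, and the arch transcription factor genes Mef2c and Gsc. They were taken as all probe sets whose single gene symbol in the array annotation is 1 of these 7 names, which gave 17 of the 45101 probe sets on the array. These 17 probe sets covered 6 genes, with 5 probe sets for Mef2c, 4 for Edn3, 3 each for Ednrb and Ece1, and 1 each for Edn1 and Gsc. No probe set was named Ednra, and this receptor was not analysed here. The tissue came from ICR mouse embryos with no genetic change or drug named in the labels. The groups were medial mandibular arch at E9.7 (1 array), lateral arch at E9.7 (1 array), medial arch at E10.5 (3 arrays), lateral arch at E10.5 (3 arrays), medial arch at E11.5 (2 arrays) and medial tissue at E14.5 (1 array). At E10.5 the medial piece was cut at the distal end of the paired lateral lingual swellings, and the lateral piece held what remained. The labels of the E14.5 tissue name the tongue and a medial or anterior region, so its dissection differed as well as its stage. RNA of 40 embryos was pooled per time point, so p-values measure only the spread between arrays of pooled RNA, which may be technical. Precision is limited by how few arrays there are.

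Endothelin-1 is made as a long precursor, trimmed by proteases such as furin and cut to its active form by the membrane enzyme that Ece1 encodes. In the mouse arch it is released by surface epithelium, pharyngeal endoderm and mesodermal core cells and acts on the type A receptor on neural crest cells, which couples to Gq proteins and phospholipase C. That signal is known to turn on Dlx5, Dlx6, Hand2 and Gsc and to give the arch its lower jaw identity. Mef2c acts with this pathway in crest cells and is also a central factor of muscle and vessels. Endothelin-3 and the type B receptor are known mainly from melanoblasts and enteric neuron precursors.

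Promoter sequences are shown for Edn1, Ednrb, Mef2c and Gsc, the 4 genes whose brightest probe set differed by more than 1 log2 unit between group means, so that the letters next to each start can be read beside the values. They run 5′ to 3′ on the gene's strand, from 250 bases before to 50 bases after the RefSeq start (build GRCm38.p6), and capitals mark a motif found on either strand.
Edn1, chr13:42301226-42301525, plus strand: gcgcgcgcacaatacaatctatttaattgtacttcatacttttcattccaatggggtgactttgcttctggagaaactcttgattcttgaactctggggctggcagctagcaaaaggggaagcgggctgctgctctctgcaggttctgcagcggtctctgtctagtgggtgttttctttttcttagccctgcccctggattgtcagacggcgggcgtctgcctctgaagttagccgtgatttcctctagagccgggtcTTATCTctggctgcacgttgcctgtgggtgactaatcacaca
Ednrb, chr14:103843652-103843951, minus strand: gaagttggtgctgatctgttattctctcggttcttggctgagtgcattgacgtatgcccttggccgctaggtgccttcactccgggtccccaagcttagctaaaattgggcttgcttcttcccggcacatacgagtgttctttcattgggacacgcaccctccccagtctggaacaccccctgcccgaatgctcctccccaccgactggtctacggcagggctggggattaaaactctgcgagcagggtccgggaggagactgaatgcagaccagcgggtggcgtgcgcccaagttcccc
Mef2c, chr13:83523406-83523705, plus strand, the second of 3 listed starts: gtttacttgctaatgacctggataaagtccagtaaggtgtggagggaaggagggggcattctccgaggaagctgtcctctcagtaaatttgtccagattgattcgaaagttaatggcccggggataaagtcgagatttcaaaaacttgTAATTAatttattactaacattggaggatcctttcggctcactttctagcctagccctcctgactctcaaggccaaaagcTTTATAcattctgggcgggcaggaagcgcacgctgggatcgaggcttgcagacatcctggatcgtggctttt
Gsc, chr12:104473187-104473486, minus strand: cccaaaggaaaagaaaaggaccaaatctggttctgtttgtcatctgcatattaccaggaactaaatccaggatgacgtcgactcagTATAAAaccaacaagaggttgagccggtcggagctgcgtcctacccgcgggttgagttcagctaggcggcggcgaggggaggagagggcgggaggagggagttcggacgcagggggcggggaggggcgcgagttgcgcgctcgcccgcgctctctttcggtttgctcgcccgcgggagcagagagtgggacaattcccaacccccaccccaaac

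Motifs were searched on both strands, and each share given here is over the 32851 RefSeq promoters of this length. The motif bound by GATA proteins, written AGATAA, was in 11.2% of them. That of AP-1, written TGANTCA, was in 7.81%. The homeodomain motif bound by Dlx and related proteins, TAATTA, was in 5.29%. A motif of MEF2 proteins (CTA and TAG with 4 free bases between) was in 3.69%, the sequence TATAAA in 13.6% and the E-box CANNTG in 72.3%. The Edn1 promoter held AGATAA on the opposite strand at position 9 after the start. The second Mef2c start had TAATTA at -102 and TATAAA on the opposite strand at -22, and it was printed because it held these letters. The Mef2c starts that are not printed held motifs too. The first had TATAAA on the opposite strand at -107, the third had TGANTCA at -137, and both had an E-box. The Gsc promoter held TATAAA at -164 and an E-box at -210, which is not in capitals. None of these motifs was found in the 300 bases of Ednrb. In the 4 printed promoters no motif overlapped another. All 7 genes were matched in the promoter table, and a match of letters is a description, not a binding site.

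Values are given as log2 signal after quantile normalization, a scale on which 1 unit is a 2-fold difference, and levels are compared only within a probe set. Deposited medians of 9 arrays were 5.20 to 5.73. Those of the first replicates of medial E10.5 (2.37) and medial E11.5 (2.47) were far lower. By their spiked-in control probe sets the arrays were divided into 4 control groups, a number that was set and not found. The second held just these 2. The first joined the pair of E9.7 arrays with the second replicates of medial E10.5 and medial E11.5 and the first replicate of lateral E10.5. The third joined the other lateral E10.5 arrays with medial replicate 3 of that stage, and E14.5 was alone in the fourth. Quantile normalization removes such a shift of a whole array, but it did not make the 2 arrays of low median like the others. Their normalized 18S rRNA signal was 10.18 (medial E10.5) and 9.52 (medial E11.5), against 7.51 to 8.86 on the other 9 arrays. Replicate pairs that held 1 of them correlated with Pearson r = 0.97, and the other replicate pairs with 0.99. With values as deposited, the median difference of all tested probe sets was -1.04 between medial and lateral tissue at E10.5 and -0.68 between medial E11.5 and medial E10.5. All 7 markers of crest mesenchyme reached the filter level of 4.86, the median of all normalized values, on at least 1 array of every group.

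**Figure D1:**
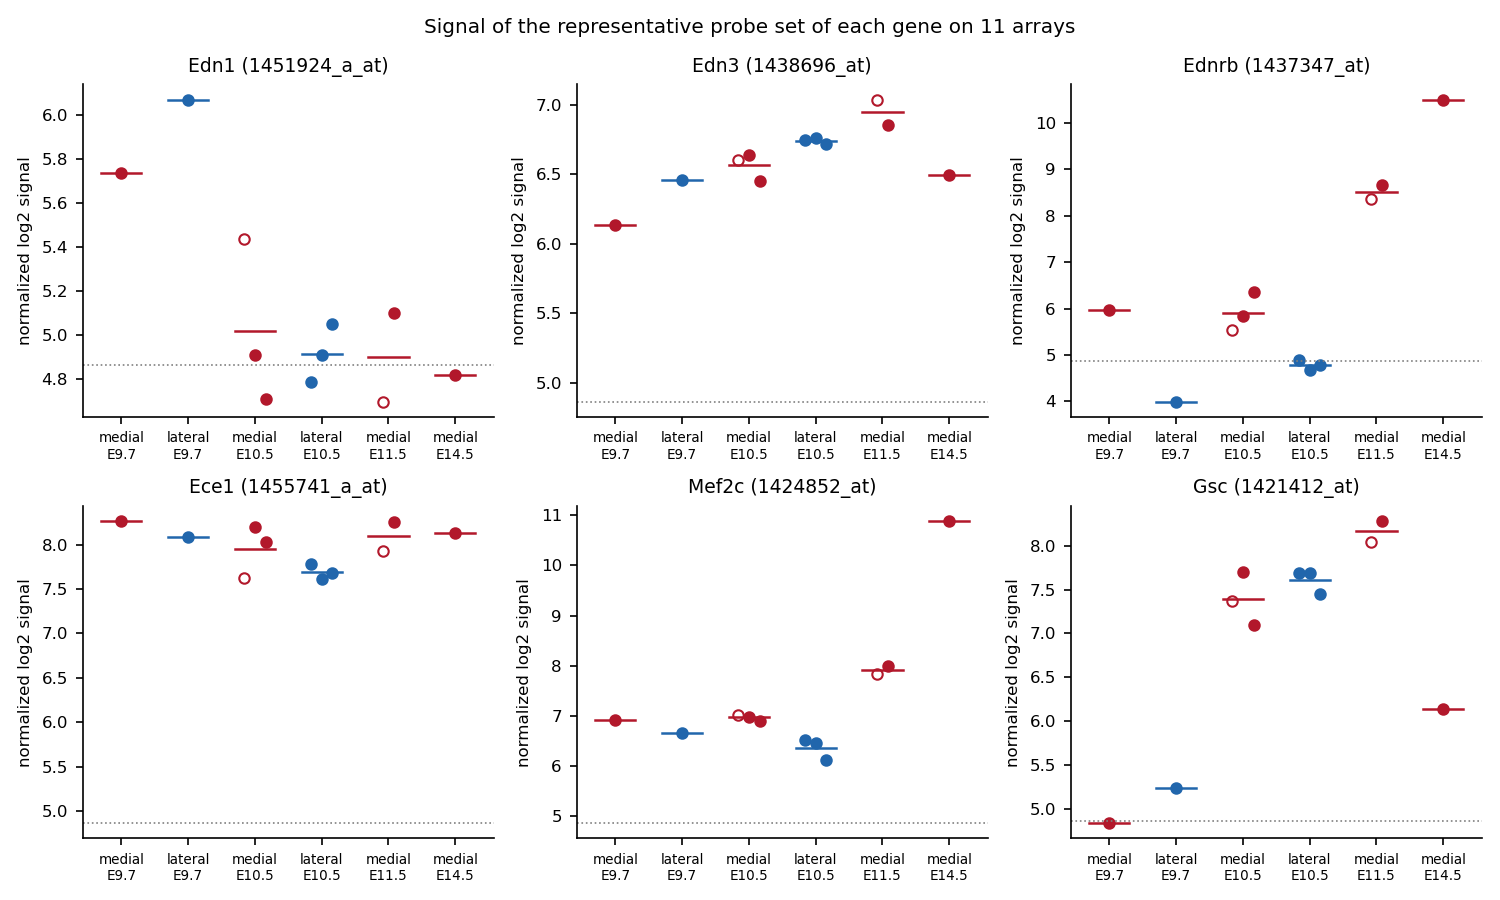
Normalized log2 signal (y axis) of the probe set with the highest mean of each gene, by group (x axis). Red points are medial arrays, blue points lateral arrays, open points the 2 arrays of low deposited signal, short lines group means and the dotted line the filter level of 4.86. Ednrb and Mef2c were highest at E14.5, at 10.498 and 10.88, Gsc was highest at E11.5, with 8.04 and 8.28, and Edn1 was highest at E9.7, with 5.73 and 6.07.

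Of the ligand genes, Edn1 was brightest at the youngest stage, and this held in both pieces. Its probe set 1451924_a_at read 5.73 in medial and 6.07 in lateral tissue at E9.7. At E10.5 it read 5.44, 4.91 and 4.71 on the medial arrays and 4.79, 4.91 and 5.05 on the lateral arrays. It read 4.70 and 5.10 at E11.5 and 4.82 at E14.5. All 9 arrays from E10.5 on were thus below both E9.7 arrays, and the 4 later groups overlapped or differed by less than the residual SD of 0.28. Lateral tissue at E10.5 lay below E9.7 by a log2 difference of -1.15 (2.22-fold), and each lateral E10.5 array was at least 2-fold lower than the single E9.7 array. The medial difference was -0.72 and was not counted, because not every array was 2-fold apart. There is 1 array at E9.7, so neither difference was tested, and with values as deposited the lateral difference was -0.95 and was not counted. By this fold rule 2 of 14 measured member probe sets were counted in lateral tissue, Edn1 as lower and Gsc as higher, beside 1.6% of 24346 probe sets (0.748% higher and 0.854% lower). In medial tissue 1 of 15 was counted, Gsc as higher, beside 0.832% of 24640 (0.552% higher and 0.28% lower).

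Markers of epithelium, a known source of endothelin-1, read as follows on these arrays. The summed linear signal of 12 epithelial markers was 3355 to 3695 in medial tissue at E10.5 against 4872 at E9.7, and 1916 to 2031 in lateral tissue at E10.5 against 2775 at E9.7. All 12 reached the filter level on at least 1 array of every group, and their part in the Edn1 values was not tested. By the fold rule 0 of 12 were counted in medial tissue (median difference -0.05) and 1 in lateral tissue, Krt18 as lower (list median -0.21). In tissue of mixed cells, fewer cells of a type and less RNA per cell cannot be told apart.

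At E10.5, 7 of 12 epithelial markers were called higher in medial tissue, beside 1.89% of 24339 probe sets, and their part in the Edn1 values was not tested. Edn1 showed no called difference between the pieces there. Medial tissue averaged 5.02 ± 0.38 and lateral tissue 4.92 ± 0.13 (SD, n = 3 each), a difference of 0.10 ± 0.20 (log2 ± SE, limma adjusted p = 0.866) with a 95% interval of -0.36 to 0.56. Between medial E11.5 and medial E10.5 the difference was -0.12 ± 0.22 (limma adjusted p = 0.901, interval -0.63 to 0.39). Without medial E10.5 replicate 1 the first difference was -0.11, and without both arrays of low signal the second was 0.29, so neither has a settled direction. Edn1 is dim on this array, with 7 of 11 arrays at or above the filter level, which limits what could be seen.

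Edn3, the ligand gene known from melanoblast and enteric crest cells, showed no called difference in either tested comparison. The probe set of highest mean, 1438696_at, read 6.13 in medial and 6.46 in lateral tissue at E9.7. At E10.5 it read 6.60, 6.64 and 6.46 on medial arrays and 6.75, 6.76 and 6.72 on lateral arrays, so every lateral array was above every medial one. The difference of -0.17 ± 0.11 did not pass (limma adjusted p = 0.559, interval -0.43 to 0.08). It read 7.04 and 6.86 at E11.5, above all E10.5 arrays, with a difference from medial E10.5 of 0.38 ± 0.13 that did not pass either (limma adjusted p = 0.170), and 6.49 at E14.5. Over the 4 probe sets, differences were -0.41 to -0.01 between the pieces at E10.5 and 0.03 to 0.47 between medial E11.5 and medial E10.5, and none passed. At an unadjusted p under 0.05, 0 of 4 differed between the pieces and 1 of 4 between stages. Probe set 1441924_x_at passed between stages with the control group as a fixed effect (0.66, limma adjusted p = 0.00875) and between the pieces with array weights (-0.58, adjusted p = 0.0422). Without the 2 arrays of low signal the stage differences of 1421136_at (-0.30) and 1441923_s_at (-0.13) were negative. At E10.5 all 4 were higher than at E9.7, by 0.33 to 0.77 in medial and by 0.28 to 0.60 in lateral tissue, less than 2-fold. At E14.5 all 4 lay below medial E11.5, by -1.24 to -0.45. Probe set 1441924_x_at may cross-hybridise, as its suffix marks, and pairs of Edn3 probe sets correlated over the 11 arrays with Pearson r between 0.48 and 0.85.

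The receptor gene Ednrb had the largest differences among the members between the pieces and between E10.5 and E11.5. Probe set 1437347_at read 5.98 in medial tissue and 3.99 in lateral tissue at E9.7. At E10.5 it read 5.54, 5.83 and 6.35 on medial arrays against 4.90, 4.67 and 4.79 on lateral arrays, with no overlap. It then read 8.35 and 8.65 at E11.5 and 10.498 at E14.5, above every earlier array. Of the group means, only medial E9.7 and medial E10.5 (5.91) lay closer than the residual SD of 0.29.

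At E10.5, Ednrb was 2.18-fold higher in medial tissue by this probe set (5.91 ± 0.41 against 4.79 ± 0.11, SD, n = 3 each, log2 difference 1.12 ± 0.20 (SE), limma adjusted p = 0.0203). The difference was 0.93 within control group 1 and 1.62 within control group 3, and with both low-signal arrays left out it was 1.30 (adjusted p = 0.0130). With values as deposited it was -0.06, above the median of -1.04 for all probe sets, and was not called. Leaving out 1 array left a difference of 0.90 to 1.30, but the call ended without medial replicate 2 (limma adjusted p = 0.0607) or lateral replicate 1 (0.0570), 2 (0.106) or 3 (0.0902). The other Ednrb probe sets differed by 0.33 ± 0.20 (1423594_a_at) and 0.12 ± 0.21 (1426314_at) and did not pass, with limma adjusted p = 0.533 and 0.849. At E10.5 they reached the filter level on 1 and 0 of 6 arrays, so the dim signal limits them. At E9.7 the medial array was 3.96-fold above the lateral array by 1437347_at, the only one of 14 measured member probe sets at least 2-fold apart, beside 1.38% of 23154 probe sets (0.795% higher and 0.587% lower). Lateral values of 1437347_at were dim too, under the filter level at E9.7 (3.99) and on E10.5 replicates 2 (4.67) and 3 (4.79). Fold sizes between the pieces are limited by this.

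Between E10.5 and E11.5 Ednrb rose in medial tissue. The means of 1437347_at were 8.50 ± 0.22 at E11.5 (n = 2) and 5.91 ± 0.41 at E10.5 (SD, n = 3), a 6.02-fold rise (log2 difference 2.59 ± 0.23 (SE), limma adjusted p = 0.000349). The difference was 2.82 within control group 1 and 2.80 within control group 2. On the deposited scale it was 1.92 and did not pass (limma adjusted p = 0.878), nor did any probe set in that comparison. The differences of the others were 1.67 ± 0.22 (1423594_a_at, limma adjusted p = 0.00304) and 1.37 ± 0.23 (1426314_at, limma adjusted p = 0.0119). Probe set 1426314_at was tested only because both E11.5 arrays reached the filter level, so a rise was built into its selection, and 1423594_a_at passed the filter through these 2 and 1 E10.5 array, so neither adds support to the rise of 1437347_at. Without medial E11.5 replicate 2, 1426314_at had an adjusted p of 0.0609. At E14.5, 1437347_at was higher than the E11.5 mean by 2.00 and 1426314_at by 1.32, while 1423594_a_at differed by -0.18. The probe sets therefore disagreed on the last interval, and the first of them alone was at least 2-fold beyond both E11.5 arrays.

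Markers of the cells in which the type B receptor is best known moved as follows. The summed signal of 8 melanoblast and glial crest markers was 750 to 984 at E11.5 against 429 to 476 in medial tissue at E10.5, and it was 1629 at E14.5. Of 6 tested between medial E11.5 and E10.5, 1 rose and none fell, beside 2.68% of 24339 probe sets higher and 1.62% lower. The 1 that rose was the receptor gene Erbb3 of crest-derived glia (1.78 ± 0.19, limma adjusted p = 0.00102). Sox10, which marks glial and melanoblast precursors, averaged 6.08 at E11.5 and 5.97 at E10.5 (adjusted p = 0.868). The melanoblast gene Dct was under the filter level in every group, and Foxd3 in every group but E14.5. Between the pieces at E10.5 this sum ran the other way, at 429 to 476 in medial against 514 to 566 in lateral tissue, where Fabp7, a glial gene, was lower in medial tissue (-2.06 ± 0.14, limma adjusted p = 0.000187). It was the 1 marker of 6 tested that passed there, beside 1.89% of all tested probe sets higher and 1.07% lower. Erbb3 (0.47 ± 0.17, adjusted p = 0.276) and Mitf (0.25 ± 0.16, adjusted p = 0.571) had positive differences there. Fabp7 was under the filter level in medial tissue at E10.5 and E11.5. It was tested only through lateral E10.5 arrays, so its difference was built into its selection. Endothelial cells also carry the receptor, and the sum of 12 endothelial markers was 1941 to 2201 in medial and 1501 to 1565 in lateral tissue at E10.5, and 1428 to 1513 at E11.5. The part of these cells in the Ednrb values was not tested.

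**Figure D2:**
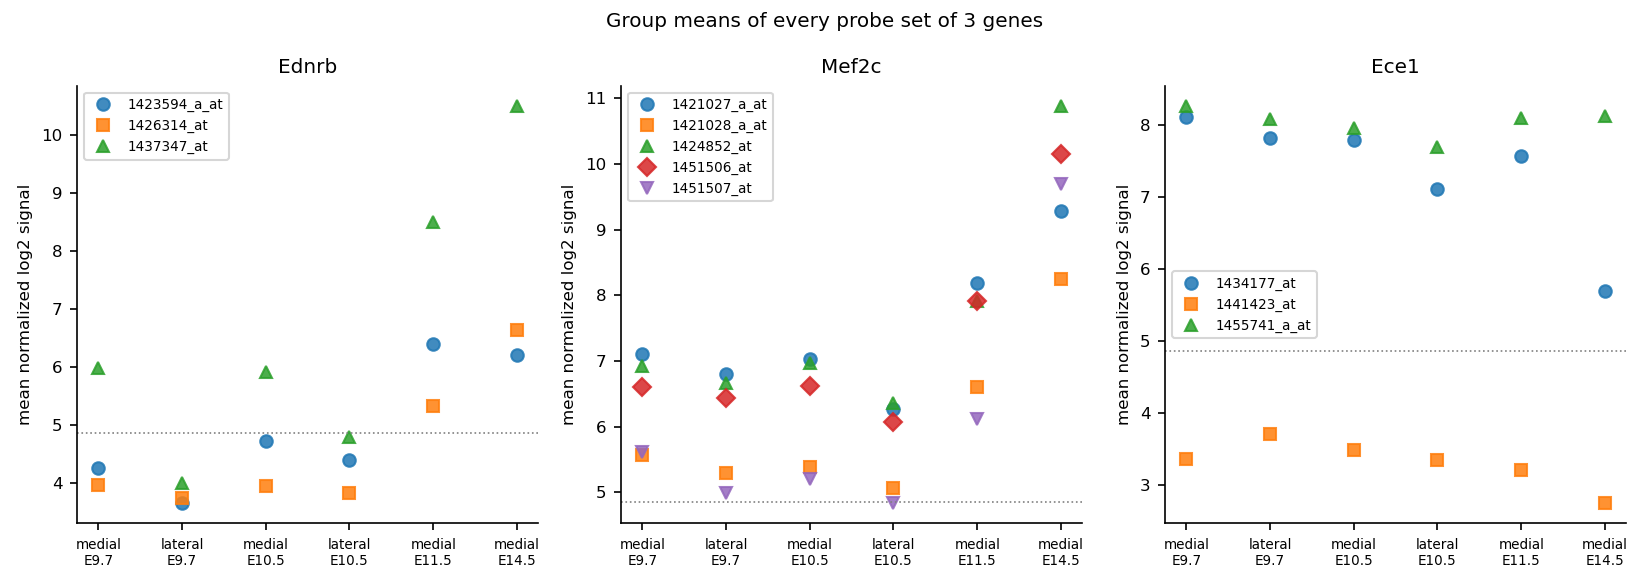
Mean normalized log2 signal (y axis) of every probe set of Ednrb, Mef2c and Ece1 in each group (x axis), with the filter level of 4.86 as a dotted line. All 5 Mef2c probe sets were highest at E14.5, by 1.096 to 3.57 over E11.5, whereas Ece1 1434177_at was lower at E14.5 by -1.88 and Ece1 1455741_a_at differed by 0.03.

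Ece1, which encodes the enzyme that cuts big endothelins to their active form, was measured by probe sets that did not move together. Probe set 1434177_at read 8.12 in medial and 7.82 in lateral tissue at E9.7. At E10.5 it read 7.92, 7.79 and 7.65 on medial arrays against 7.16, 7.01 and 7.17 on lateral arrays, and the groups did not overlap. It read 7.38 and 7.76 at E11.5 and 5.69 at E14.5. Medial tissue was 1.59-fold higher at E10.5 by this probe set (7.79 ± 0.13 against 7.12 ± 0.09, SD, n = 3 each, log2 difference 0.67 ± 0.14 (SE), limma adjusted p = 0.0373), but leaving out any 1 of the 6 arrays ended the call (adjusted p = 0.0607 to 0.194), as did median centring of the arrays (0.163) and testing with no filter (0.0633). With values as deposited the difference was -0.34 and was not called. Probe set 1455741_a_at differed by 0.26 ± 0.17, with overlapping arrays (limma adjusted p = 0.566, interval -0.13 to 0.64), and passed with array weights (0.46, adjusted p = 0.0336). Probe set 1441423_at was under the filter level on all 11 arrays and was not tested.

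Over the 11 arrays, the 2 brighter Ece1 probe sets correlated with Pearson r = 0.16. Neither passed between medial E11.5 and E10.5, with differences of -0.22 ± 0.15 and 0.14 ± 0.19. At E14.5, 1434177_at was lower than the E11.5 mean by -1.88 and at least 2-fold below both E11.5 arrays, whereas 1455741_a_at differed by 0.03. A statement on Ece1 in the E14.5 sample therefore depends on which probe set is read.

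Mef2c, a MADS-box transcription factor gene of crest, muscle and vessels, was higher in medial tissue at E10.5 in 1 probe set and rose at E11.5 in all 5. Probe set 1424852_at, with the highest mean, read 6.93 in medial and 6.67 in lateral tissue at E9.7. At E10.5 it read 7.03, 6.98 and 6.90 on medial arrays against 6.53, 6.45 and 6.13 on lateral arrays, with every medial array above every lateral one. It read 7.85 and 7.99 at E11.5 and 10.88 at E14.5. In this probe set the E9.7 and E10.5 medial means lay within the residual SD of 0.15, and the other steps in the order of groups were larger.

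At E10.5, the Mef2c difference passed in probe set 1421027_a_at, which read 7.17, 7.01 and 6.92 in medial tissue against 6.40, 6.26 and 6.16 in lateral tissue (1.70-fold, log2 difference 0.76 ± 0.12 (SE), n = 3 each, limma adjusted p = 0.00964). It was 0.62 within control group 1 and 0.71 within control group 3. The call ended without lateral replicate 2 (adjusted p = 0.0634) or 3 (0.0675) and after median centring of the arrays (0.108). With values as deposited the difference was -0.32 and was not called. The other 4 probe sets differed by 0.32 to 0.60 in the same direction and did not pass. The nearest was 1424852_at at 0.60 ± 0.13 (limma adjusted p = 0.0547), which passed with 1 probe set per gene (0.0314), with a filter at the 70th percentile (0.0261), with the trend and robust options (0.0355), with array weights (0.0117) and with the control group as a fixed effect (0.0335). With array weights 1451507_at passed as well (0.59, adjusted p = 0.0364). Arrays of the 2 pieces did not overlap in 4 of the 5 Mef2c probe sets and in 8 of the 16 tested member probe sets, beside 21.9% of all 24339 tested.

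Between medial E11.5 and medial E10.5, the 5 Mef2c probe sets rose by 0.92 to 1.29, or 1.90-fold to 2.45-fold. Probe set 1421027_a_at was at 8.19 ± 0.02 at E11.5 (n = 2) and 7.03 ± 0.12 at E10.5 (SD, n = 3), a difference of 1.15 ± 0.13 (SE, limma adjusted p = 0.00144). Probe set 1424852_at rose by 0.95 ± 0.15 (limma adjusted p = 0.00837). The weakest call, 1451507_at (0.92 ± 0.21, limma adjusted p = 0.0482), ended without any 1 of the 5 arrays (adjusted p = 0.0586 to 0.206). Without both arrays of low signal its difference was 1.12 (adjusted p = 0.112). The call also ended after median centring (0.161), with no filter (0.0642), in a fit of only these groups (0.106), with array weights (0.185) and with the trend and robust options (0.0517). Probe set 1451506_at (adjusted p = 0.0117) did not pass without medial E11.5 replicate 1 (0.0569) or 2 (0.0813) or with only the groups compared (0.0596), nor did 1424852_at without medial E11.5 replicate 2 (0.0595) or after median centring (0.134). The 5 differences were 0.24 to 0.58 with values as deposited, and none passed. At E14.5 all 5 were at least 2-fold above both E11.5 arrays, by 1.096 (1421027_a_at) to 3.57 (1451507_at). The size of the last step thus depended on the probe set, while its direction did not.

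Skeletal muscle, where Mef2c is a known regulator, appeared in the same samples. The summed signal of 12 skeletal muscle markers was 4926 to 6336 at E11.5 against 371 to 445 in medial tissue at E10.5, and it was 49556 at E14.5. Of 11 tested between medial E11.5 and E10.5, 8 rose and none fell, beside 2.68% of 24339 probe sets higher and 1.62% lower. Among the 8 were the myogenic factor genes Myod1 (4.13 ± 0.18, limma adjusted p = 1.88e-05) and Myog (5.48 ± 0.24, adjusted p = 1.88e-05). At E10.5 the sum was 371 to 445 in medial and 370 to 465 in lateral tissue, and Myf5, Myod1, Myog, Myh3, Myh8 and Tnnt3 were all under the filter level in medial tissue. In lateral tissue only Myh3, Myh8 and Tnnt3 of the 12 were under it on every array. Those of Myh3, Myh8 and Tnnt3 that were tested passed the filter only through E11.5, so a rise was built into their selection. Myf5, Myod1 and Myog were dim on every medial E10.5 array. This limits the size of their stage differences, and a fall could hardly be seen. Of 11 tested between the pieces 1 passed, the intermediate filament gene Des, which was higher in medial tissue (0.84 ± 0.16, limma adjusted p = 0.0301). The endothelial sum was higher in the medial pieces at E10.5, as given above, and 2 of 12 endothelial markers passed, Cldn5 (0.67 ± 0.12, limma adjusted p = 0.0164) and Emcn (0.76 ± 0.15, adjusted p = 0.0263). Shares over all tested probe sets between the pieces were 1.89% higher and 1.07% lower. The sum of 7 smooth muscle and pericyte markers was 3742 to 5186 at E11.5 against 823 to 1458 in medial tissue at E10.5, with Myh11 and Cnn1 under the filter level in every group. The part of muscle and endothelial cells in the Mef2c values was not tested.

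**Figure D3:**
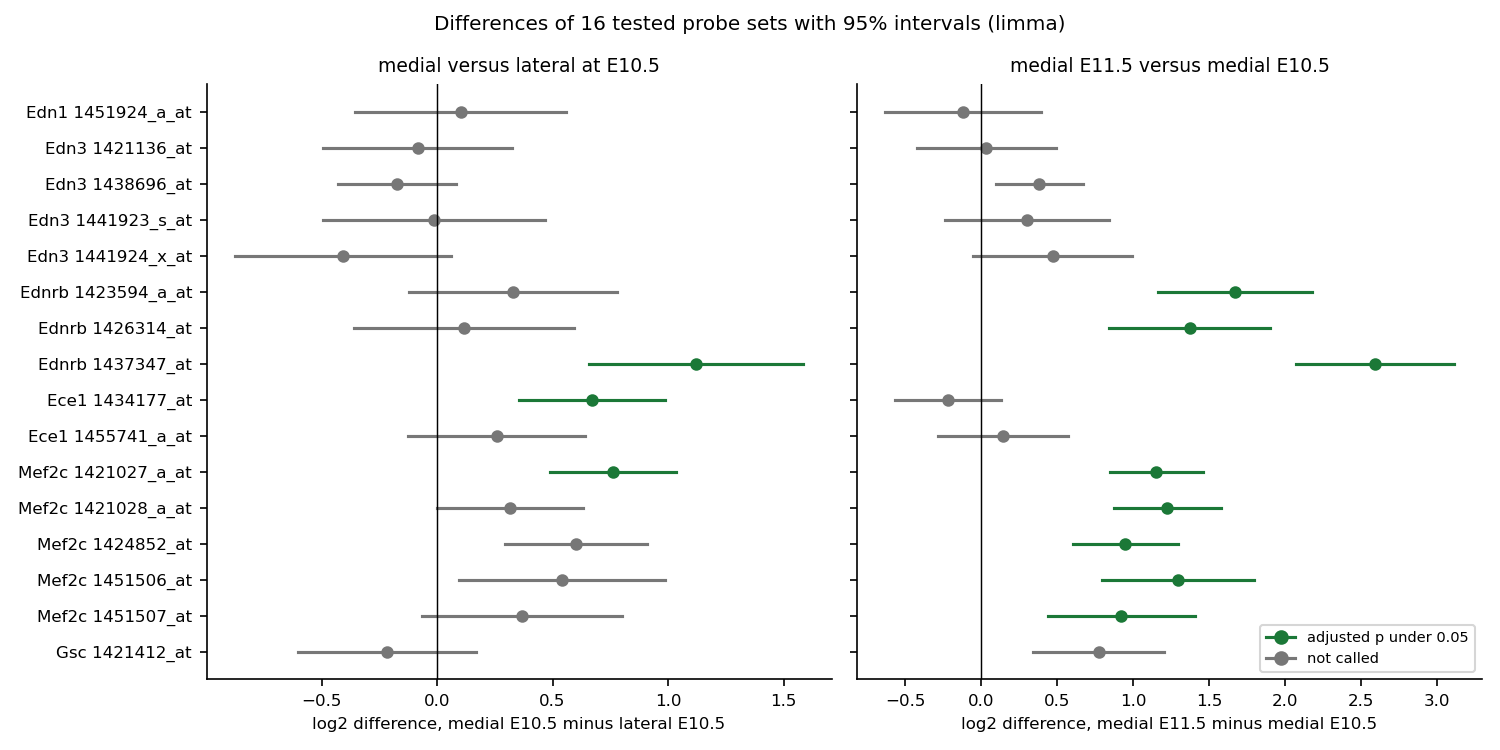
Log2 differences (x axis) of the 16 tested member probe sets (y axis), medial minus lateral at E10.5 on the left and medial E11.5 minus medial E10.5 on the right, as points with 95% intervals from limma. Green marks an adjusted p under 0.05: 3 probe sets on the left and 8 on the right, all of them higher in medial tissue or at E11.5.

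Gsc, the homeobox gene goosecoid that acts below endothelin-1 in the mouse arch, changed with stage and showed no called difference between the pieces. Probe set 1421412_at read 4.84 in medial and 5.24 in lateral tissue at E9.7. At E10.5 it read 7.38, 7.70 and 7.10 on medial arrays and 7.69, 7.68 and 7.45 on lateral arrays, all of them above both E9.7 arrays, with the pieces overlapping. It read 8.04 and 8.28 at E11.5, above every E10.5 array, and 6.14 at E14.5. In this order, only medial and lateral tissue at E10.5 lay closer than the residual SD of 0.22.

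The E10.5 arrays were above E9.7 by a log2 difference of 2.55 in medial tissue (5.88-fold) and 2.37 in lateral tissue (5.18-fold), and Gsc was the only member gene counted as higher in both. The medial difference was 1.77 with values as deposited and was not counted. Its E9.7 side is a single array just under the filter level (4.84), so the medial fold rests on a dim value. Medial minus lateral tissue differed by -0.22 ± 0.17 at E10.5 (limma adjusted p = 0.635), with a 95% interval of -0.60 to 0.17, and by -0.40 between the single E9.7 arrays. Between medial E11.5 and E10.5, Gsc differed by 0.77 ± 0.19 (8.16 ± 0.17, n = 2, against 7.39 ± 0.30, n = 3, SD), which missed the threshold (limma adjusted p = 0.0635). It passed with 1 probe set per gene (0.0391), with the filter at the 70th percentile (0.0386), with the trend and robust options (0.0425), with the control group as a fixed effect (0.0208) and without medial E10.5 replicate 2 (0.0343). At E14.5 it was lower than the E11.5 mean by -2.02 (4.06-fold), and it was at least 2-fold below both E11.5 arrays.

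Counted together, 3 of 16 tested member probe sets were higher in medial than in lateral tissue at E10.5 and 0 were lower by limma, beside 2.96% of 24339 probe sets called in either direction (1.89% higher and 1.07% lower). At an unadjusted p under 0.05, 6 were higher and 0 lower, beside 13.5% of all tested in either direction. Each of the 3 belongs to another gene, Ednrb, Ece1 and Mef2c. Between medial E11.5 and E10.5, 8 of 16 rose and 0 fell by limma, beside 4.31% called in either direction (2.68% higher and 1.62% lower). At an unadjusted p under 0.05, 10 were higher and 0 lower, beside 14.9%. Without Ednrb 1426314_at, which no E10.5 array brought past the filter, 7 of 15 rose, and without Ednrb 1423594_a_at as well, 6 of 14. These 8 come from Ednrb and Mef2c alone, and probe sets of a gene share their target. The arrays of these stages did not overlap in 10 of 16, beside 25.1% of all tested. The median difference was 0.29 over the 16 probe sets and -0.01 over all tested between the pieces, and 0.85 and -0.02 between stages. Without the 2 arrays of low signal 3 and 7 member probe sets passed. At E14.5 against E11.5, 8 of 16 measured member probe sets were at least 2-fold apart, 6 higher and 2 lower, beside 18.5% of 25405 (9.49% higher and 9.02% lower), so changes of this size were common in that sample.

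The other genes of the pathway were read from gene lists, with 1 probe set per gene. Beside these counts, 1.89% of 24339 probe sets were called higher and 1.07% lower between the pieces at E10.5. Between medial E11.5 and E10.5 the shares were 2.68% and 1.62%. Among 8 genes of endothelin peptides and their processing, 7 were tested and 1 passed at E10.5, Mme, which encodes neprilysin, a protease that breaks down endothelins and other peptides. Mme was higher in medial tissue by 2.19 ± 0.31 (8.38 against 6.18, limma adjusted p = 0.00523) and rose again at E11.5 by 1.67 ± 0.34 (10.05 against 8.38, adjusted p = 0.0285). Furin, a protease of the precursor, differed by 0.18 ± 0.14 and Ece2, a second converting enzyme gene, by -0.20 ± 0.14 at E10.5. The third ligand gene, Edn2, was under the filter level in every group but E14.5, where it read 4.99. The list median was 0.10 at E10.5 and 0.10 between stages.

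Among 15 genes of receptors and Gq signalling, 13 had a probe set and 12 were tested. At E10.5 only Ednrb passed, and the Gq subunit gene Gnaq (0.15 ± 0.13) and the phospholipase genes Plcb3 (0.20 ± 0.12) and Plcb1 (0.06 ± 0.13) did not. At E11.5 Ednrb and the protein kinase C gene Prkca rose (0.91 ± 0.17, limma adjusted p = 0.0200), and none fell. The list medians were 0.12 and -0.02. Among 6 genes of RGS proteins, which switch off Gq and Gi subunits, 5 were tested. Rgs5 (5.36 ± 0.17, limma adjusted p = 6.28e-06) and Rgs4 (1.72 ± 0.22, adjusted p = 0.00323) were higher in medial tissue at E10.5. Both fell between medial E11.5 and E10.5, by a log2 difference of -2.67 ± 0.19 and -2.02 ± 0.24, while Rgs16 rose by 0.95 ± 0.12 (adjusted p = 0.00240). Rgs4 was under the filter level in lateral E10.5 and medial E11.5 tissue, so both its differences were built into its selection. Rgs5 was under the filter level on every lateral E10.5 array (mean 3.91) and passed only through medial arrays. That favours a higher medial value, and the dim lateral side limits the fold size. Rgs16 was under the filter level on every E10.5 array and passed only through E11.5, so its rise was built in as well.

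Of 10 genes of MEF2 factors and their partners, 9 were tested. None passed at E10.5 by limma, and the list median was 0.36. At an unadjusted p under 0.05, 5 were higher and 0 lower, beside 13.5% of all tested in either direction. Mef2c stands here by its brightest probe set. At E11.5, 3 rose and none fell: Mef2c, the smooth and cardiac muscle cofactor gene Myocd (1.48 ± 0.25, adjusted p = 0.0126) and Hdac5, which encodes a repressor of MEF2 proteins (0.63 ± 0.14, adjusted p = 0.0390). Myocd was under the filter level on every E10.5 array and passed only through E11.5, so its rise was built into its selection. The list median was 0.48. At E14.5, Mef2a (1.29), Mef2d (1.48) and Hdac9 (2.63) were at least 2-fold above E11.5 beside Mef2c.

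The 6 arch genes known to depend on endothelin-1 did not move as 1 group. At E10.5, the basic helix-loop-helix factor genes Hand1 (3.17 ± 0.37, limma adjusted p = 0.00234) and Hand2 (1.45 ± 0.16, adjusted p = 0.00205) were higher in medial tissue. The homeobox genes Dlx3 (-1.87 ± 0.22, adjusted p = 0.00243) and Dlx5 (-1.73 ± 0.29, adjusted p = 0.0125) were lower. Dlx6 (-1.32 ± 0.38) and Gsc did not pass. Between medial E11.5 and E10.5, Dlx5 (-3.92 ± 0.32, adjusted p = 0.000232), Dlx6 (-2.96 ± 0.42, adjusted p = 0.00459) and Hand2 (-0.80 ± 0.18, adjusted p = 0.0432) fell, none rose, and Gsc alone had a positive difference. Dlx5 and Dlx6 were under the filter level in medial tissue at E11.5 and E14.5, where Gsc read 8.04, 8.28 and 6.14. At E10.5 against E9.7, Gsc was the 1 gene of the 6 counted at 2-fold in each piece.

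**Figure D4:**
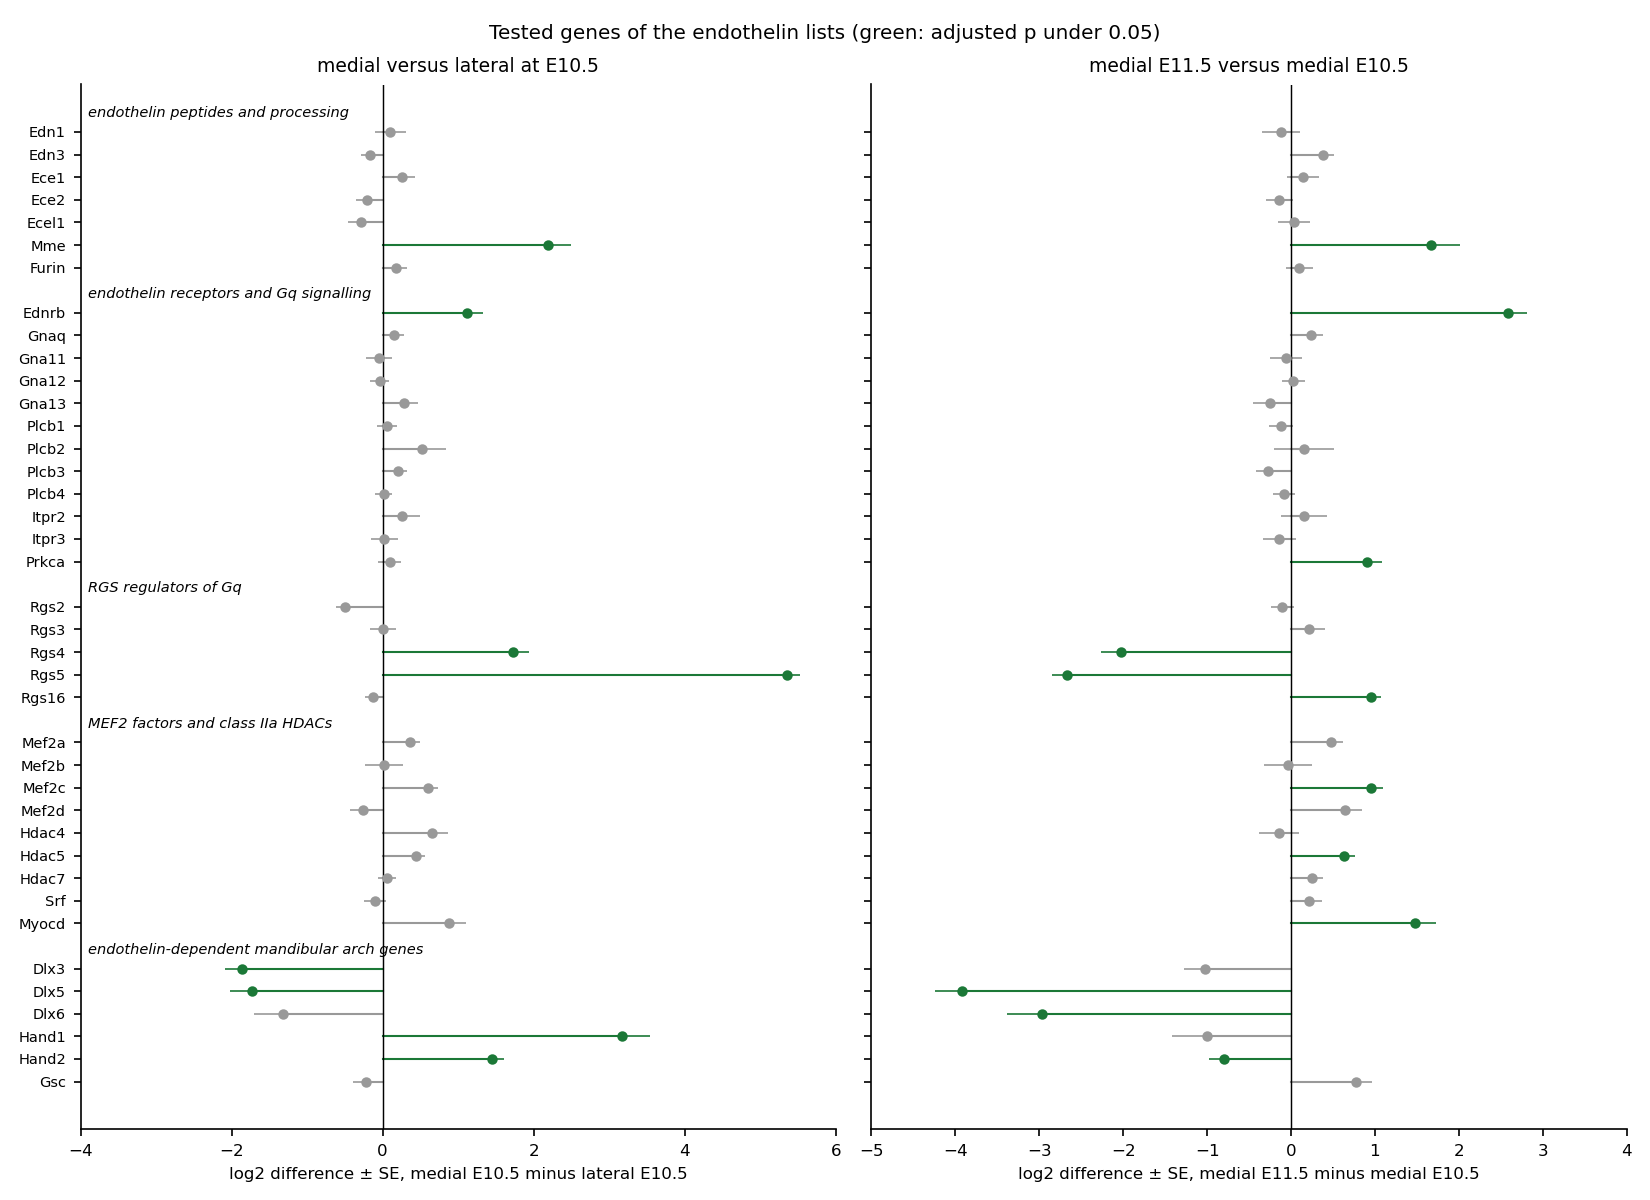
Log2 differences with SE (x axis) of the tested genes of 5 pathway lists (y axis), medial minus lateral at E10.5 on the left and medial E11.5 minus medial E10.5 on the right, green where the adjusted p was under 0.05. Dlx3, Dlx5, Hand1 and Hand2 lie on both sides of 0 on the left, and Dlx5 and Dlx6 are farthest below 0 on the right, at -3.92 and -2.96.

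The genes whose normalized signal followed each member most closely over the 11 arrays were found among 11967 tested genes, as a description of these arrays, which share pools, stage and scaling. For Ednrb they were Vim (Pearson r = 0.99), Klf14 (0.98) and Erbb3 (0.98). For Mef2c they were Dnm1l (0.99), Mef2a (0.99) and Pld2 (0.98), and for Gsc they were Zcchc18 (0.98), Astn1 (0.96) and Ddr2 (0.96). For Edn1 they were Lars (0.95), Urb2 (0.91) and Cdv3 (0.90), for Edn3 Trps1 (0.92), Aldh1a2 (0.92) and Stard5 (0.90), and for Ece1 Rom1 (0.92), Mb21d2 (0.91) and Zdhhc17 (0.89). Without the E14.5 array, r lay between 0.90 and 0.98 for these 18 pairs.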

How the data were processed

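RNA pools of ICR mouse mandibular arch pieces were hybridised to 11 Affymetrix arrays. The authors deposited log2 signals per probe set, made with Affymetrix Expression Console 1.1 per the submitters' processing notes. The algorithm is not given in the sources used here, and base 2 was inferred from the range of 0.0887 to 14.5. Probe sets were named from GEO's platform annotation (34958 with 1 symbol, 932 with several, 9211 with none).

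The deposited values were quantile-normalized over all arrays and fitted in R 4.3.3 by limma 3.58.1, each of 6 groups having its own mean (5 residual degrees of freedom), and Benjamini-Hochberg adjustment over 24339 probe sets, called at an adjusted p under 0.05. The filter kept probe sets at or above the median of all values (4.86) on 2 or more of the 8 arrays from groups with replicates. Comparisons with 1 array on a side have no test, and a probe set was counted there when every array was at least 2-fold apart. The code was tested on simulated data. All member probe sets are named, with up to 4 genes per list and direction and the 3 most similar genes per member. The members and lists were chosen with earlier results of these data known. Alternatives covered scaling, filter, probe sets per gene, variance model, samples in the fit, array weights, control groups, the replicate block, left-out arrays and thresholds.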

Additional observations from a re-analysis of the deposited data

How the results depend on the processing

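Scaling mattered most, and the 2 arrays of low deposited signal lie in the medial E10.5 and E11.5 groups. With values as deposited, limma called 2 probe sets between the pieces at E10.5 (721 after normalization) and 0 between medial E11.5 and E10.5 (1048), with 0 and 0 members (3 and 8), and medial E10.5 against E9.7 gave 91 counted (205) with 0 members (1). On the deposited scale the sign turned at E10.5 for Edn1 (-1.05), Ednrb 1437347_at (-0.061) and 1423594_a_at (-0.78), and Ece1 1434177_at (-0.34) and 1455741_a_at (-0.74). It turned there also for Mef2c 1421027_a_at (-0.32), 1421028_a_at (-0.82), 1424852_at (-0.48), 1451506_at (-0.54) and 1451507_at (-0.78). Between stages it turned for Ece1 1455741_a_at (-0.55) and Edn3 1421136_at (-0.62), 1438696_at (-0.28), 1441923_s_at (-0.35) and 1441924_x_at (-0.18). The cause of a turned sign was not tested under any setting. Centring each array gave 1 member at E10.5, 648 calls between stages, and turned Edn3 1441923_s_at at E10.5 (0.039) and 1421136_at between stages (-0.012). Array weights gave 3154 calls and 7 members at E10.5 and turned Edn1 there (-0.017), and Ece1 1455741_a_at (-0.019) and Edn3 1421136_at (-0.022) between stages. Without the 2 arrays, Edn1 turned at E10.5 (-0.11) and between stages (0.29), as did Ece1 1434177_at (0.034), Edn3 1421136_at (-0.30) and 1441923_s_at (-0.13) between stages. The control group as a fixed effect gave 1848 and 3153 calls. An adjusted p under 0.01 left 405 and 525 calls, with 1 and 5 members. Between stages, fitting only the groups compared gave 554 calls, the filter at the 70th percentile left 5 members of 8 tested, and 1 probe set per gene left 3 of 6. Same-numbered medial and lateral arrays at E10.5 deviated together in 2 of 3 pairs (correlations 0.13, -0.25 and 0.47), so the numbers were not taken as pairs. Those of medial E11.5 and E10.5 correlated at 0.59 and 0.43, but these are 2 pairs, each within 1 control group. The deviations of the 2 E11.5 arrays from their mean mirror each other, so the 2 correlations are not independent. The first pair joins the 2 arrays of low deposited signal. With the replicate block 615 probe sets and 2 members passed at E10.5, and 1664 and 10 between stages. The block ended the call of Ece1 1434177_at at E10.5 (0.67, limma adjusted p = 0.0593), and between stages Edn3 1441924_x_at (0.64, adjusted p = 0.0490) and Gsc (0.63, adjusted p = 0.0447) passed. It changed no other member call. Leaving out 1 array gave 395 to 755 calls and 0 to 2 members at E10.5, and 723 to 1100 calls and 4 to 8 members between stages. It gave 239 to 350 counted for medial and 445 to 750 for lateral E10.5 against E9.7, with 1 and 2 members throughout, and 5923 to 6469 with 9 to 11 members at E14.5. Over these omissions the sign turned within -0.11 to 0.26 for Edn1, -0.22 to 0.0022 for Edn3 1421136_at, -0.077 to 0.040 for Edn3 1441923_s_at and -0.0088 to 0.25 for Ednrb 1426314_at at E10.5. Between stages it turned within -0.32 to 0.089 for Edn1, -0.25 to 0.31 for Edn3 1421136_at, -0.15 to 0.75 for Edn3 1441923_s_at and -0.021 to 0.31 for Ece1 1455741_a_at. At 1.5-fold, 1126 (4.86%), 736 (2.99%), 1727 (7.09%) and 8573 (33.7%) probe sets were counted for medial against lateral E9.7, medial and lateral E10.5 against E9.7, and E14.5 against E11.5. Of the members, 2 of 14, 2 of 15, 4 of 14 and 12 of 16 were counted, in the same order. Of 346 tested member differences under settings other than left-out arrays, 282 kept direction and side of the threshold, 24 lost the call, 15 gained it and 25 turned sign, 3 of these from a call. Settings of threshold, filter, probe sets per gene or variance model left the difference itself unchanged, so direction could not turn there. A difference that was not called at first had no call to lose. Dim signal limits Edn1, Ednrb 1423594_a_at and 1426314_at, Ednrb 1437347_at in lateral tissue, Ece1 1441423_at and Gsc in medial tissue at E9.7.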
